A study of Homo sapiens with 6 samples.

Results

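GABPA ChIP-seq of A-375 cells, an established human melanoma line, listed 358 peaks in the ROSA26 knockout line that had no counterpart in either other line and lay away from the ends of protein-coding genes. They were chosen by position: the ROSA26 peak was overlapped by no peak of the B1 knockout list and by none of the parental list, and no RefSeq protein-coding gene span began or ended within 1 kb of its summit. They are 358 of the 3857 peaks of the ROSA26 list and of the 8541 peaks in the 3 lists together. The 3 conditions were a ROSA26 knockout line (clone No1), a line in which exon 2 of the GABP B1 subunit was knocked out and TERT, the catalytic subunit of telomerase, was then knocked in (the sample title names a TERT rescue), and parental cells with no knockout. ROSA26 is a locus often edited because its loss is thought to be harmless, and the series' design text calls that line a control. Each knockout line grew out of 1 sorted cell per the labels' protocols, so the ROSA26 library is 1 clone, and clone, edit and library cannot be told apart. Each condition had 1 ChIP library and 1 input, and the inputs were not analysed here on their own. No difference between conditions was tested, and no p-value between conditions is given. The peak lists hold no reads at the edited loci, so the genotypes could not be checked from them.

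GABP is an ETS family transcription factor made of GABPA, which contacts DNA at sites built around GGAA, and a B subunit that carries the activation domain. In most cells it is known for binding close to the starts of housekeeping genes, often on CpG-rich promoters, and in melanoma it is known for acting on TERT promoters that carry a new ETS site. Sites inside genes or between them make up a small share of its known binding, and many gene starts also lie inside long genes, at the alternative first exons of shorter transcripts.

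Sequence could be shown where a summit fell in 1 of the 300-base windows that RefSeq gives around the starts of coding and lncRNA transcripts (GRCh38.p14), from 250 bases before each start to 50 after it. This was the case for 40 of the 358 peaks. The stretches below are those of the 10 highest-fold peaks among these 40 and run up to 50 bases to each side of the summit, as far as the window reaches, written 5′ to 3′ on the strand of the named transcript. Capitals mark the ETS core CCGGAA or its reverse complement, where it occurs.
C11orf65 (chr11:108467484-108467584, minus strand): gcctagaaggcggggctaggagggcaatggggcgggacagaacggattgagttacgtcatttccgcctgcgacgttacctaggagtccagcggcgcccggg
CCNY (chr10:35336265-35336365, plus strand): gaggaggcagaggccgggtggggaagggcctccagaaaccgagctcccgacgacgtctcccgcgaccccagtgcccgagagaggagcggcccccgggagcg
LOC105377134 (chr21:14027357-14027457, plus strand): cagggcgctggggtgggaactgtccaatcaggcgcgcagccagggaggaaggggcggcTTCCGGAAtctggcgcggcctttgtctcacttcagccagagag
LOC105374796 (chr2:71001218-71001307, plus strand): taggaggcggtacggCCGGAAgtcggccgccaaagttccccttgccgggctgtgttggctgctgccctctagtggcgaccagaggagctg
CELF1 (chr11:47553117-47553217, minus strand): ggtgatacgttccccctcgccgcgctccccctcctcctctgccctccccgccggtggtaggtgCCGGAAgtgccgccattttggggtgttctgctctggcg
LOC124903824 (chr1:2314821-2314921, plus strand): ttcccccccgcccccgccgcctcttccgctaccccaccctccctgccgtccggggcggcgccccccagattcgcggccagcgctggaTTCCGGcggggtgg
LINC03006 (chr7:65750980-65751080, minus strand): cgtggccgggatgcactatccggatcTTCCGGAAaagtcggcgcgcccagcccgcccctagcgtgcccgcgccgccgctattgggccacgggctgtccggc
NKIRAS2 (chr17:42019974-42020074, plus strand): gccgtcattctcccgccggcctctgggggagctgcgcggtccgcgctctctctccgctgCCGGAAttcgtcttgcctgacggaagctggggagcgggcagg
WDR18 (chr19:984276-984376, plus strand): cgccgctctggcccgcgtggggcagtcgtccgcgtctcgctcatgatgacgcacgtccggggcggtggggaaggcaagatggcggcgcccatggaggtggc
LOC107986557 (chr6:3849317-3849376, minus strand): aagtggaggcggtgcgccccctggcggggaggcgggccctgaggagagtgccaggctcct

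In 6 of these 10 stretches an ETS core was present, and in LOC105377134 and LINC03006 a pair of cores on opposite strands overlapped in a palindrome. In CELF1, an RNA-binding protein of splicing and mRNA decay, and in LOC105374796, an uncharacterised lncRNA, the core ran on into the 8-letter form CCGGAAGT. The stretches at C11orf65, CCNY (a cyclin), WDR18 (a protein of ribosome assembly) and LOC107986557 held no core, and their whole windows held none either. A letter match describes the sequence and is not shown to be a bound site.

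Of all ROSA26 peaks, 23.0% (886 of 3857) had no peak in the other lists, against 39.1% (358 of 916) of those away from gene ends and 18.0% (528 of 2941) of those near one. The selection itself used these overlaps, so the shares are given as description. Close to the limits of the selection, peaks on either side had similar values. Just outside 1 kb, peaks lay 1049 bp from NIPSNAP3B, 1053 bp from DNAJA2 and 1077 bp from CDK5R2, with folds of 2.98, 3.13 and 3.89. Just inside it, peaks not selected lay 998 bp from TESK1, 994 bp from RFX7 and 989 bp from SLC29A2, with folds of 3.02, 2.96 and 3.21. The closest peaks without overlap ended 285 bp from a parental peak near VPS9D1, 915 bp from one near IER2 and 926 bp from one in ELF2. The smallest overlaps that kept a peak out of the set measured 253, 296 and 311 bp.

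The selected peaks were weak. Fold is the authors' ratio of reads at the summit to the local background, with 1 added to each of them as MACS2 does, and its median over the 358 peaks was 2.87 (quartiles 2.4 and 3.35, range 1.19 to 6.57). The median was 3.23 in the 528 ROSA26-only peaks near gene ends, 4.59 in the 349 peaks away from gene ends with a parental peak only, and 9.54 in the 204 with both a parental and a B1 knockout peak. The −log10 p of the summit, also the authors' value, had a median of 12.5 (4.32 to 48.8) in the selected peaks, against 15, 31.8 and 116 in the same 3 sets. The selected peaks were also narrower, with a median width of 420 bp against 438, 574 and 727 bp. Absence from the other lists was the choice itself, and strength bears on it, so these differences are given as description without a test.

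**Figure D1:**
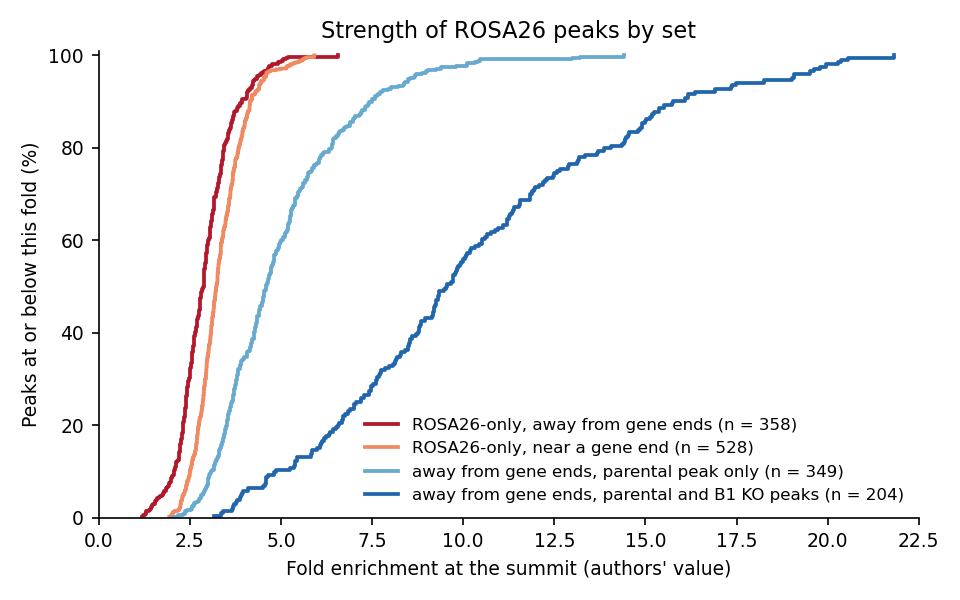
Cumulative share of ROSA26 peaks (percent, vertical axis) at or below each fold enrichment (horizontal axis) for the 358 ROSA26-only peaks away from gene ends and 3 other sets of peaks of the same list. The ROSA26-only curve away from gene ends runs furthest left, with a median fold of 2.87 against 3.23, 4.59 and 9.54.

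Reads were recovered from each peak's fold and p-value. The 358 summits held a median of 59 reads (33 to 697) over a local background of 19.2 reads (14.2 to 577). Near gene ends, ROSA26-only summits held 62 reads, and summits away from gene ends held 92 with a parental peak only and 194 with both other peaks, over backgrounds of 18.6, 18.8 and 19.2 reads. The medians of the background were thus alike, and the sets differed in reads at the summit. A peak with 59 reads carries a large counting error, and neighbouring values in this set should not be ranked against each other. By −log10 p the selected peaks ranked from 2030 to 3857 in the list of 3857, with a median rank of about 3480. None was among the strongest 1660 ROSA26 peaks, which is as many as the B1 knockout list holds, and 58 were among the strongest 3024, as many as the parental list holds. Of the 358, 1 exceeded the median fold of the whole ROSA26 list, 6.02.

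The backgrounds of the libraries differed. The most frequent recovered background was 14.2 reads in the ROSA26 library, 9.86 in the B1 knockout library and 15.4 in the parental library, or 14.2, 9.11 and 13.3 after each library's scale factor. Reads and background were then lowered in proportion to the scaled parental background. After this, 319 of the 358 peaks (89.1%, 85.4 to 92.1) still passed the lowest −log10 p of the parental list, 5.86. Only 93 (26.0%, 21.5 to 30.8) passed its 10th percentile, 15.4. With the backgrounds taken before the scale factors, where the parental one is the higher, 338 passed the lowest parental value. Lowered to the B1 knockout background, 304 (84.9%) passed the lowest value of that list, 4.74, and 52 (14.5%) its 10th percentile, 13.6. As listed, without any change of background, 25 of the 358 lay below the lowest parental value, against 3 of the 528 ROSA26-only peaks near gene ends. A position with no listed peak is below the caller's limit there and is not shown to be unbound. The part that these backgrounds play in the absence of the peaks from the other lists was not tested.

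**Figure D2:**
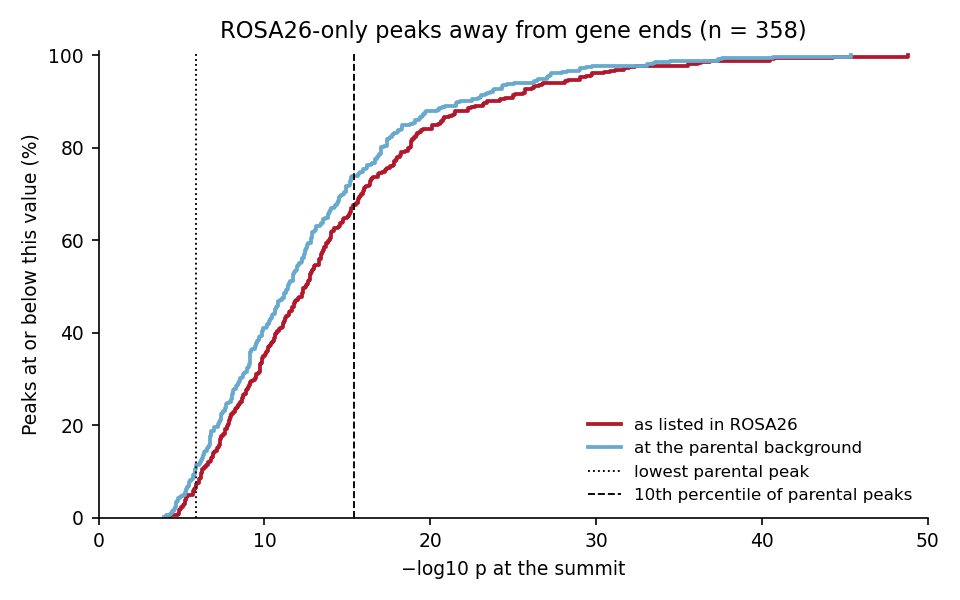
Cumulative share of the 358 peaks (percent, vertical axis) at or below each −log10 p (horizontal axis), as listed and after lowering to the scaled parental background. Vertical lines mark the lowest parental value, 5.86, and the parental 10th percentile, 15.4. Most of both curves lies between the lines.

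Summits on unplaced or unlocalized sequences were set apart first. Each other summit went to the first class that applied: coding start, other gene, elsewhere inside, elsewhere between. A summit nearer to another gene than to a coding start could therefore be classed at the coding start. No transcript start was listed on chromosome 8, so none of the 12 selected peaks there could be placed at a start. At an internal start of a coding transcript, within 1 kb, lay 40 peaks (11.2%, 8.1 to 14.9). A further 58 (16.2%, 12.5 to 20.4) lay within 1 kb of an end of a gene that is not protein-coding. Elsewhere inside a coding gene were 106 (29.6%, 24.9 to 34.6), elsewhere between coding genes 141 (39.4%, 34.3 to 44.7), and on unplaced or unlocalized sequences 13 (3.63%, 1.95 to 6.13). Peaks away from gene ends that had a parental peak only were spread differently, with 22.6% at coding starts, 34.7% at other genes, 23.2% elsewhere inside, 18.9% elsewhere between and 0.573% on unplaced sequences. Those with both other peaks had 40.7%, 32.4%, 11.3%, 15.2% and 0.49% in the same classes. For coding starts, other genes and places between genes, the interval of the selected peaks did not meet that of the parental-only peaks (18.4 to 27.4, 29.7 to 39.9 and 14.9 to 23.4%). For places elsewhere inside a gene (24.9 to 34.6 against 18.9 to 28.0%) and unplaced sequences (1.95 to 6.13 against 0.0695 to 2.05%) the intervals overlapped. All these intervals are exact 95% binomial ones and cover counting error alone, since peaks of 1 library are not replicates.

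**Figure D3:**
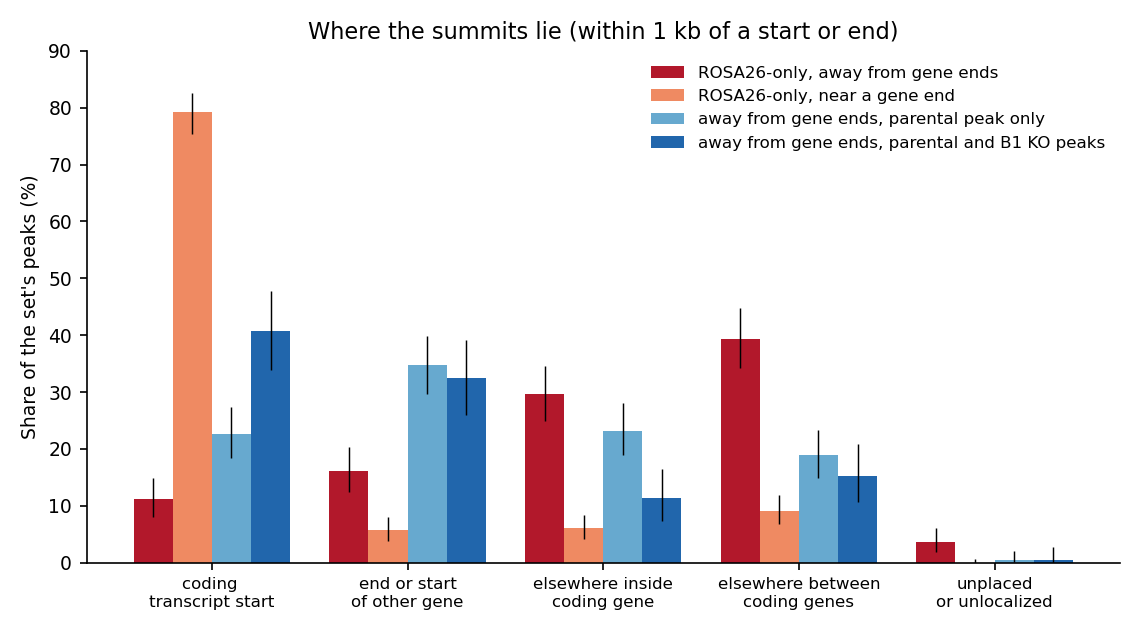
Share of each set's peaks (percent, bars, vertical axis) in 5 classes of place (horizontal axis), with exact 95% intervals as lines. The ROSA26-only peaks away from gene ends reach 39.4% between coding genes, against 18.9% and 15.2% of the peaks away from gene ends that other lists share.

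The genome itself gives a scale for these shares. On chromosomes 1 to 22 and X lay 345 of the selected peaks, of which 44.9% (39.6 to 50.3) were inside a coding gene span. Of all positions there that lie between the first and last listed gene and more than 1 kb from a coding gene end, 42.2% are inside a span. Positions within 1 kb of an internal coding start held 11.6% of the 345 peaks (8.41 to 15.5) and make up 0.319% of that length. Positions within 1 kb of an end of another gene held 18.6% (14.6 to 23.1, 64 peaks, of which 6 also lay at a coding start) and make up 3.9% of it. Any listed start, coding or lncRNA, lay within 1 kb of 63 peaks (17.6%), against 39.8% of the parental-only and 56.9% of the doubly shared peaks. Chromosome 8, which had no listed start, was kept in the totals behind all these shares of peaks and of length.

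Among the 40 peaks at internal coding starts, the folds had a median of 3.27 (2.04 to 5.19) and the summits a median of 66 reads. The strongest was at C11orf65 (chromosome 11, summit 108467534), 5 bp before a start and 2347 bp from the nearest end, with a fold of 5.19 on 78 reads. MTM1, a phosphoinositide phosphatase, had its summit 275 bp from an internal start, with a fold of 5.06 on 76 reads. CCNY had a summit 194 bp before its start with a fold of 4.99 on 75 reads, and CELF1 one 35 bp before its start with a fold of 4.52 on 92 reads. These 4 are all among the 15 strongest of the 358.

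Lower in the same class were genes of several common cell functions, named here after their values were seen. LIG4, the ligase of non-homologous end joining, had a fold of 3.12 on 51 reads with the summit 17 bp from a start. PRKAR1A, a regulatory subunit of protein kinase A, had a fold of 3.11 on 71 reads at 15 bp. G3BP2, a stress granule protein, had a fold of 3.22 on 48 reads at 40 bp. HOOK2, a linker of organelles to microtubules, had a fold of 2.88 on 74 reads at 13 bp, and a second peak inside its span had a fold of 2.18. HOOK2 was the only coding gene with more than 1 of the 358 peaks in its span. The smallest fold in the class was 2.04, at TTC39A, where the start was 903 bp away.

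The class of other genes held lncRNAs, pseudogenes and small RNA genes. Of the 64 peaks within 1 kb of an end of such a gene, the nearest gene was a lncRNA for 43, a transcribed pseudogene for 9 and another pseudogene for 6. Distances to such genes, here and below, run to their nearest end. Summits inside such a gene were not told apart from those outside it. LOC105377134 and LOC105374796, both lncRNAs with a core in the stretch above, had folds of 4.93 on 74 reads and 4.66 on 72 reads. The remaining types were 2 miRNA genes, with 1 each of a small Cajal body RNA, an rRNA, a spliceosomal RNA and a tRNA gene. RNA28SN2, a gene of the large ribosomal RNA, had an end 892 bp from a summit with a fold of 5.14 on 103 reads. RNVU1-30, a variant of a spliceosomal small nuclear RNA, lay 250 bp from one with a fold of 4.65 on 99 reads. SCARNA2 lay 18 bp from a summit with a fold of 4.21 on 91 reads, and the arginine tRNA gene TRR-TCG3-1 lay 126 bp from one with a fold of 3.56 on 71 reads. MIR23A and MIR658 lay 359 and 132 bp from summits with folds of 2.63 and 3.43. The summit at MIR658 was also 169 bp from a coding start of ANKRD54 and was classed there.

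HOTAIR, a lncRNA of the HOXC cluster, had an end 244 bp from a summit with a fold of 3.51. Among the pseudogenes, RARRES2P6 had the strongest peak, with its end 187 bp from the summit, a fold of 4.77 and 78 reads. CCT6P1, a copy of a chaperonin subunit gene, lay 75 bp from a summit with a fold of 4.28 on 87 reads, the summit shown above for LINC03006. Copies of FRG1 occurred 3 times, as FRG1CP, FRG1JP and FRG1EP, at 213, 4 and 18 bp with folds of 3.23, 3.22 and 2.79. Reads of ribosomal RNA genes, of variant small nuclear RNA genes and of pseudogenes can be split between near-identical copies, so the copy that gave these peaks is uncertain.

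Away from any listed start or end, 106 peaks lay inside coding genes, with a median fold of 2.87 and a median of 11600 bp to the nearest coding gene end. M1AP, a meiosis protein, held the strongest at a fold of 4.50 on 105 reads. RACGAP1, a regulator of cytokinesis, held one of 4.45 on 89 reads, 7706 bp from its end. Genes that held a peak were long, with a median span of 60400 bp over 155 genes, against 24500 bp over all 19821 coding genes placed. The selection kept summits more than 1 kb from gene ends, and a long span has more room for a peak. This contrast is therefore largely set in advance. The 141 peaks elsewhere between coding genes had a median fold of 2.67 and a median distance of 35300 bp to the nearest coding end, and 43 of them were more than 100 kb away.

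The strongest of all 358 was in this last class. It lay at chromosome X, 989834 to 990427, with a fold of 6.57 and 99 reads over the shared background of 14.2. It was the 1 selected peak in the 2.7 Mb at the pseudoautosomal end of X. Whether its reads came from X or Y was not checked. The nearest listed gene end of any type was that of the pseudogene RPL14P5, 19592 bp away. The nearest coding gene end was that of CRLF2, 200362 bp away, and the nearest parental peak was 401113 bp away. The others of the class among the 15 strongest were 6620 bp from HDHD5 on chromosome 22 (fold 4.67, 70 reads) and 35286 bp from SRRM3 on chromosome 7 (fold 4.61, 88 reads). A last one of the 15, at a fold of 4.92 on 118 reads on chromosome 9, was in the class of other genes. It lay 18 bp from an end of the lncRNA LOC124902227 and inside the coding gene TRIM14, 9757 bp from its end.

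Local background set off a small set of the peaks. At 24 of the 358 the recovered background exceeded 50 reads, from 51.3 to 577, and the summits held 104 to 697 reads at a median fold of only 1.54 (1.19 to 2.31). None of the 24 lay inside a coding gene, 9 were on unplaced or unlocalized sequences, and 20 were more than 100 kb from a coding gene end or on a sequence with none. The highest background was 38.5 reads among ROSA26-only peaks near gene ends, and 37.9 and 46.7 reads among those away from gene ends that had a parental peak only or both other peaks. The 3 lowest folds were 1.19 on chromosome 17 (26619447 to 26620187), 1.21 on chromosome 1 (125180017 to 125180557) and 1.27 on an unplaced sequence. The widest peak, 851 bp, also lay on an unplaced sequence, with a fold of 1.4 on 657 reads, followed by one at LOC124903824 on chromosome 1 (761 bp, fold 4.40) and one at NEU3, a sialidase gene, on chromosome 11 (743 bp, fold 3.57). Of the 17 ROSA26 peaks off the chromosomes, 13 were among the 358.

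**Figure D4:**
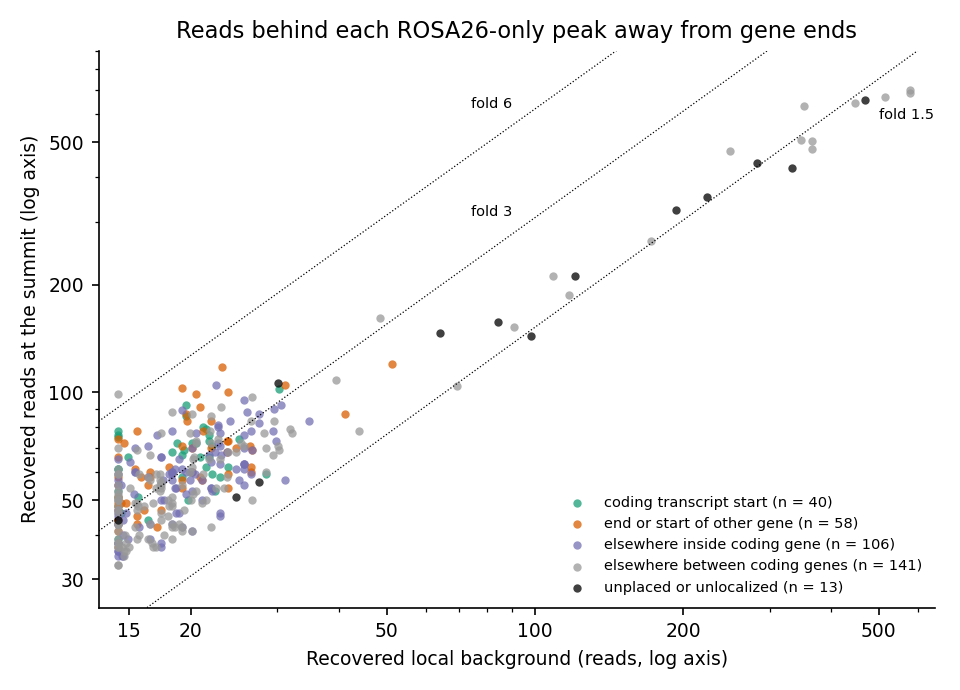
Recovered reads at the summit (vertical log axis) against recovered local background (horizontal log axis) for each of the 358 peaks, coloured by place, with dotted lines at folds of 1.5, 3 and 6. Peaks with a background above 50 reads form a tail along the fold 1.5 line, and those at coding starts stay at or under 30.2 reads of background.

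With the 127 peaks left aside whose background exceeded 1.5 times the shared value, 231 remained, with a median fold of 3.0 (1.99 to 6.57). Of these, 42.4% lay inside a coding span, 20.3% near an end of another gene and 11.7% at an internal coding start, against 43.3%, 17.9% and 11.2% of all 358.

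Sequence was not used by the selection. Of the 40 windows that cover a selected summit, 26 belong to coding and 14 to lncRNA transcripts. The ETS core CCGGAA, on either strand, was in 25 of the 40 (62.5%, 45.8 to 77.3), against 17.2% of all 34943 distinct windows. It was in 58.8% of the 323 windows at ROSA26-only peaks near gene ends, 68.0% of the 100 at parental-only peaks away from them and 79.2% of those at peaks with both others. The windows of the selected peaks were richer in G and C, at a median of 64.0% against 58.7% over all windows. Among the 9887 windows within the middle GC range of the 40, from 58.7 to 69.0%, the core was in 26.3%.

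The longer form CCGGAAGT, which holds the core, was in 17.5% of the 40 windows (7.34 to 32.8), against 4.11% of all windows and 6.95% of the windows in the same GC range. In the other 3 sets it was in 12.4%, 20.0% and 46.5%. The interval of the selected peaks thus overlapped those of the ROSA26-only and parental-only sets and lay below that of the peaks with both others (36.5 to 56.7). The 4 letters GGAA alone were in all 40, and in 95.4% of all windows.

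Where a core was present, the nearest one lay a median of 20 bp from the summit, within 50 bp at 20 of the 25 windows and within 100 bp at 22. Cores were searched only in windows that hold the summit, which limits these distances, and no distance to set them against was computed. In ZNF730, a zinc finger gene, and LOC100132356, a lncRNA, it lay 1 bp away, and in FBXO46, an F-box protein of ubiquitin ligases, 8 bp away. In NEU3 it lay 234 bp away. Summits lay before the start in 34 windows, at it in 1 and after it in 5, with 30 of 40 within 100 bp. Most of each window lies before the start, so this split is largely set by the windows. Peaks with and without a core had like folds, with medians of 3.43 (2.21 to 4.93, n = 25) and 3.36 (2.46 to 5.19, n = 15).

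Other promoter words were counted in the same windows. The GC box GGGCGG, which SP1-type factors recognise, was in 67.5% of the 40 windows (50.9 to 81.4), against 44.9% of all and 63.2% of those in the same GC range. The CCAAT box of NFY was in 45.0% (29.3 to 61.5), against 34.6% of all and 34.3% of those in the same GC range. The CRE word TGACGTCA, recognised by CREB and ATF factors, was in 3 of the 40, or 7.5% (1.57 to 20.4), against 1.84% of all and 2.89% of those in the same GC range. The AP-1 word TGANTCA was also in 7.5% (1.57 to 20.4), against 7.72% of all and 4.75% of those in the same GC range. The E-box CACGTG and the TATA word TATAAA were in 0 of the 40, against 7.23% and 11.6% of all windows. In the same GC range their shares were 9.73% and 4.03%, and 0 of 40 allows a share of up to 8.81%. An unrelated word, GGATCC, was in 5.0%, against 6.83% of all and 8.56% of those in the same GC range. Words of NRF1, TEAD, MITF, SOX, RUNX and YY1 were counted too. For each of them the interval of the 40 windows held both background shares. All words were searched on both strands.

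**Figure D5:**
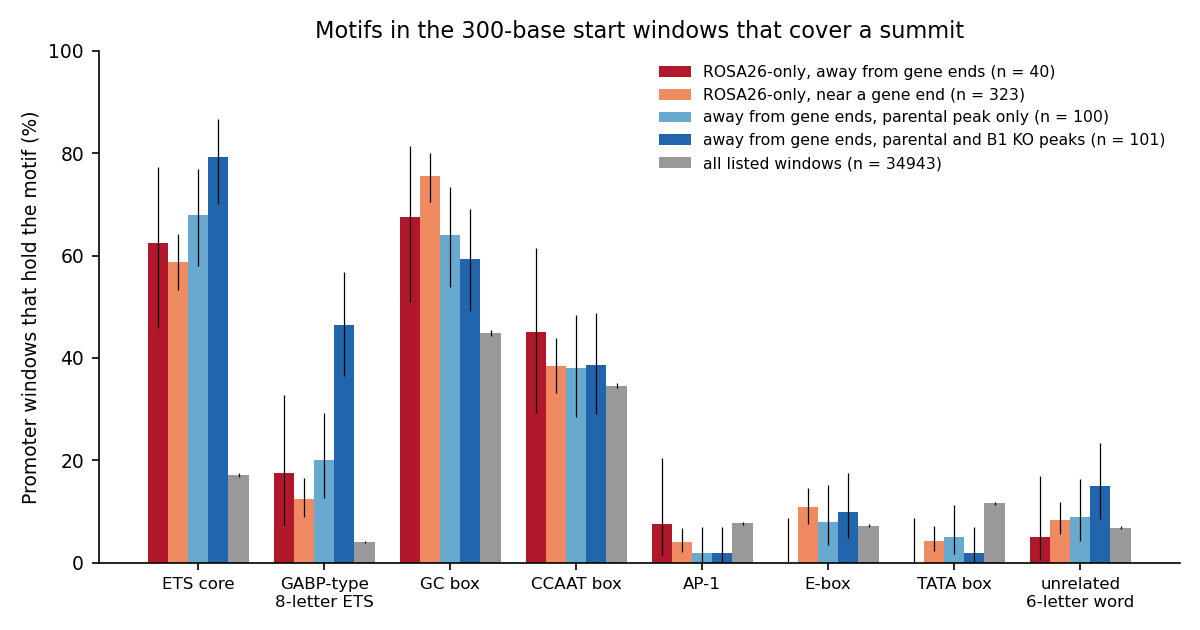
Share of 300-base start windows that hold each word (percent, bars, vertical axis) for the windows at 4 sets of ROSA26 summits and for all listed windows, with exact 95% intervals as lines. The ETS core stands at 62.5% for ROSA26-only peaks away from gene ends, against 17.2% of all windows.

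Spacing was computed for the selected peaks alone, with no other set of peaks to compare. Another ROSA26 summit lay within 50 kb of 84 of the 358 (23.5%, 19.2 to 28.2), and another of the 358 within 50 kb of 19, in 9 groups. A parental peak ended within 1 kb of 3, and within 50 kb of 64 (17.9%). Chromosome 1 held 52 of the 358, 13.1% of its 396 ROSA26 peaks, and chromosome 19 held 29, 7.14% of its 406. Chromosome 3 held 7 of 182, or 3.85%.

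Genes of the melanoma and GABP programmes were gathered in 9 lists. Of their distinct genes, 3 had a selected peak in their span, which is 1.49% (0.309 to 4.3), against 155 of 19821 coding genes (0.782%). ELF2, an ETS factor, had a fold of 4.34 on 65 reads, 25777 bp from its end and 1227 bp from a listed internal start. MCAM, an adhesion molecule of melanoma cells, had a fold of 3.0 on 57 reads, 1412 bp from its end, and EPHB2, an ephrin receptor, one of 2.77 on 50 reads. No peak lay in any of the 21 melanocyte genes, the 28 MAPK genes, the 19 AP-1 genes, the 21 TEAD and YAP genes, the 21 neural crest genes or the 10 genes of GABP subunits and telomerase. By nearest gene end, JUNB of the AP-1 list lay 1223 bp from the second HOOK2 peak. TYRP1 of the melanocyte list lay 34628 bp from a peak, and the rest of these lists had no such gene. ELF2 was 1 of 28 ETS genes, MCAM 1 of 30 adhesion genes and EPHB2 1 of 28 axon guidance genes. The spans of these 3 genes had a median of 121000 bp.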

How the data were processed

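GABPA ChIP-seq peaks were listed per ChIP sample for 3 conditions. Bowtie2, SAMtools and MACS2 and the build hg38 are named, without versions, per the submitters' processing notes. Thresholds, the treatment of duplicates and any use of the inputs as controls were not given in the sources used here. For each summit the deposited lists give its position, its fold (a ratio of summit to local background), its −log10 p-value, its −log10 q-value and a score that equals the −log10 q-value scaled up with its decimals dropped. A list's own peaks were ranked or described by these values, and folds were not compared between lists.

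The Poisson formula of MACS2 was inverted to recover summit reads and local background from each peak's fold and −log10 p (tolerance 0.01), for all peaks. The recovery was tested on simulated data. The lists hold no read totals, and the most frequent background of a library stands for its depth. Overlap meant at least 1 bp. Gene spans and the 300-base start windows came from RefSeq (GRCh38.p14, the same coordinates as hg38). No start window lay on chromosome 8. Of its coding genes, 19821 in chromosome order served to annotate summits. Conditions could not be tested against each other, having 1 library each. Shares have exact Clopper-Pearson 95% intervals. Python 3.11.15, pandas 2.3.3 and scipy 1.17.1 were used.

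The members and lists were chosen with earlier results of these data known. Named peaks were the 15 with the highest fold, the 3 lowest, the 3 widest, those at the limits of the selection and those in list genes, and others are examples of their class chosen after their values were seen. Alternatives covered the overlap rule, the distance to gene ends, the threshold, the chromosomes, the background and the motif. No genome sequence was used here, so the planned windows around every summit were replaced by the RefSeq start windows.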

Additional observations from a re-analysis of the deposited data

How the results depend on the processing

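Of 44 alternative settings, 30 left a count within 1.5 times its reported value or a share within its reported 95% interval. The number of selected peaks, 358, became 58 or 0 when the ROSA26 list was limited to its strongest peaks, as many as the parental or the B1 knockout list holds, 161 at a −log10 q of at least 10, and 231 with the background limited to 1.5 times the shared value (the last was added after seeing the data). It stayed between 276 and 415 in the others run. The share inside a coding span, 43.3% of the 358, was 37.2% with gene ends within 5 kb and 49.1% at a −log10 q of at least 10. The share near an end of another gene was 29.3% with 5 kb and 22.4% at that q. The share at an internal coding start was 7.94% with 5 kb and 15.5% at that q. The number passing the lowest parental −log10 p was 93 with the 10th percentile in its place. The share of windows with an ETS core was 17.5% with the 8-letter form and 100% with GGAA. The list genes with a peak numbered 7 when the nearest gene counted as well. ETS windows of other widths around the summits were not run, as no genome sequence was used here. No paired analysis was possible because each condition had 1 ChIP library, and no replicate could be left out. Reads at a typical summit are few, and a peak missing from another list may lie below that list's limit.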
